A study of Mus musculus with 12 samples.

Results

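Basement membrane components are described here as 32 genes, of 27179 in the deposited table, chosen by name and found in the table through the mouse Entrez identifier of each symbol. They encode 6 chains of collagen IV, the 2 multiplexin collagens XV and XVIII, 10 laminin chains, 4 linking glycoproteins, 4 proteins of the FRAS1 and FREM complex, 5 smaller secreted glycoproteins and dystroglycan, a receptor. The rule uses names and no expression value, but the set was proposed with earlier results of these data known, so the counts below are descriptions of it. All 32 were present in the table, and 29 had enough reads to be tested.

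The RNA-seq libraries were made from messenger RNA of mouse embryonic fibroblasts, from wild type C57BL/6 embryos taken at embryonic day 13.5, grown in DMEM with fetal bovine serum at 3% oxygen. The 4 groups were cells given WM-8014, an inhibitor of the MYST histone acetyltransferases, for 96 h, cells given WM-2474, named as its inactive control, for 96 h, and cells given WM-8014 or WM-2474 for 240 h. Both compounds were used at 10 µM, no group without compound was analysed here, and cultures 5, 6 and 7 were sequenced in each group, 12 libraries in all. The series design calls these 3 cultures biological replicates, but whether they came from separate embryos is not given, so the p-values measure the spread between these cultures.

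A basement membrane is the thin sheet of matrix under epithelia and endothelia and around muscle, fat and nerve. Laminins, each built of an alpha, a beta and a gamma chain, polymerise on the cell surface by binding integrins and dystroglycan, and collagen IV, a triple helix of alpha chains, forms a cross-linked network beside them. Nidogens and perlecan bridge both networks. Mesenchymal cells secrete many of these proteins, so fibroblast RNA holds their transcripts although fibroblasts in culture do not stand on a continuous sheet.

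Library totals ran from 10147466 to 45903190 reads, and 3 reads, the limit that a count of 0 allows, corresponded to 0.0654 to 0.296 CPM, a normalised count relative to the total of the library after TMM scaling. All libraries are labelled female, but Ddx3y, a Y-linked gene, was at 96.3 to 124 CPM in every library and Xist had at most 4 reads, which goes against that label. Cultures 6 and 7 of the WM-2474 96 h group were unlike the other 10 libraries in a few genes, for example Stag3 at 1.81 and 2.5 CPM, against 22.9 to 37.5 CPM. They are called the Stag3-low libraries below, and results are also given without both of them where a call changed. That fit leaves 1 library in the group, assumed to vary like the other groups, and a call lost in it may reflect the fewer libraries. The 11 fibroblast markers summed to 24040 to 40830 CPM per library. Markers of cell types that make or are wrapped in basement membranes summed far lower than the fibroblast markers. At 240 h, 7 endothelial markers summed to 2.42 to 2.71 CPM with WM-8014 and 2.54 to 3.32 CPM with WM-2474. At 96 h they summed to 4.02 to 5.89 and 6.8 to 7.97 CPM. Pecam1, Cdh5, Tie1 and Erg were under 1 CPM in every library. The 7 epithelial markers summed to at most 3.9 CPM, with Epcam, Cdh1, Krt5, Krt8 and Esrp1 under 1 CPM. The 4 mesothelial markers summed to 21.4 to 60.4 CPM with WM-8014 and 21.9 to 42.2 CPM with WM-2474 at 96 h, and to 8.16 to 22.3 and 5.51 to 12 CPM at 240 h. The 5 neural and glial markers summed to 53.9 to 75.8 CPM per library, with Tubb3 alone at 50 to 69.2 CPM. The 5 skeletal muscle markers summed to at most 1.89 CPM and the 3 adipocyte markers to at most 0.186 CPM. The part of these cells in the results below was not tested. In bulk RNA, fewer cells of a type and less RNA per cell cannot be told apart.

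Basement membrane transcripts were a visible part of the fibroblast transcriptome. The 32 genes took 0.826, 0.824 and 0.817% of the reads in the WM-8014 96 h libraries, against 0.78, 0.782 and 0.821% in the WM-2474 96 h libraries. At 240 h they took 1.07, 1.045 and 1.045% with WM-8014, against 0.974, 1 and 1.03% with WM-2474. All libraries at 240 h were above all libraries at 96 h, and the compounds did not overlap at 240 h. The 6 most-read genes, Hspg2, Nid1, Col4a1, Col4a2, Lamb1 and Lamc1, held 74.5 to 77.6% of these reads in every library.

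Levels of different genes are compared as CPM per kilobase of the deposited gene length, averaged over all 12 libraries. Col4a1 was at 209 CPM per kb, Nid1 at 204, Col4a2 at 179 and Hspg2 at 152 on that scale. Tinagl1 was at 113 CPM per kb, Lamb1 at 102, Dag1 at 94.3, Lamb2 at 67.7, Lamc1 at 64.8 and Col4a5 at 54.5, but these averages pool groups that differ and their order was not the same in each group. Tinagl1 averaged 195 CPM per kb with WM-8014 and 79.5 with WM-2474 at 240 h, where Lamb1 averaged 133 and 118 and Dag1 averaged 100.7 and 86.4. The ranges over libraries of Col4a1, 135 to 294 CPM per kb, Nid1, 169.6 to 241, and Col4a2, 117 to 241, overlapped, so their order was not separated by the spread. The abundant set held the chains of a collagen IV of alpha1 and alpha2 chains and of a laminin with beta1 or beta2 and gamma1 chains. Among laminin alpha chains Lama4 was at 23 CPM per kb, Lama5 at 8.8 and Lama2 at 6.81. Fras1, Frem1, Lamc3, Lamb3, Lama1, Col4a3, Col4a4, Lama3, Frem2 and Frem3 were each under 1 CPM per kb.

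**Figure D1:**
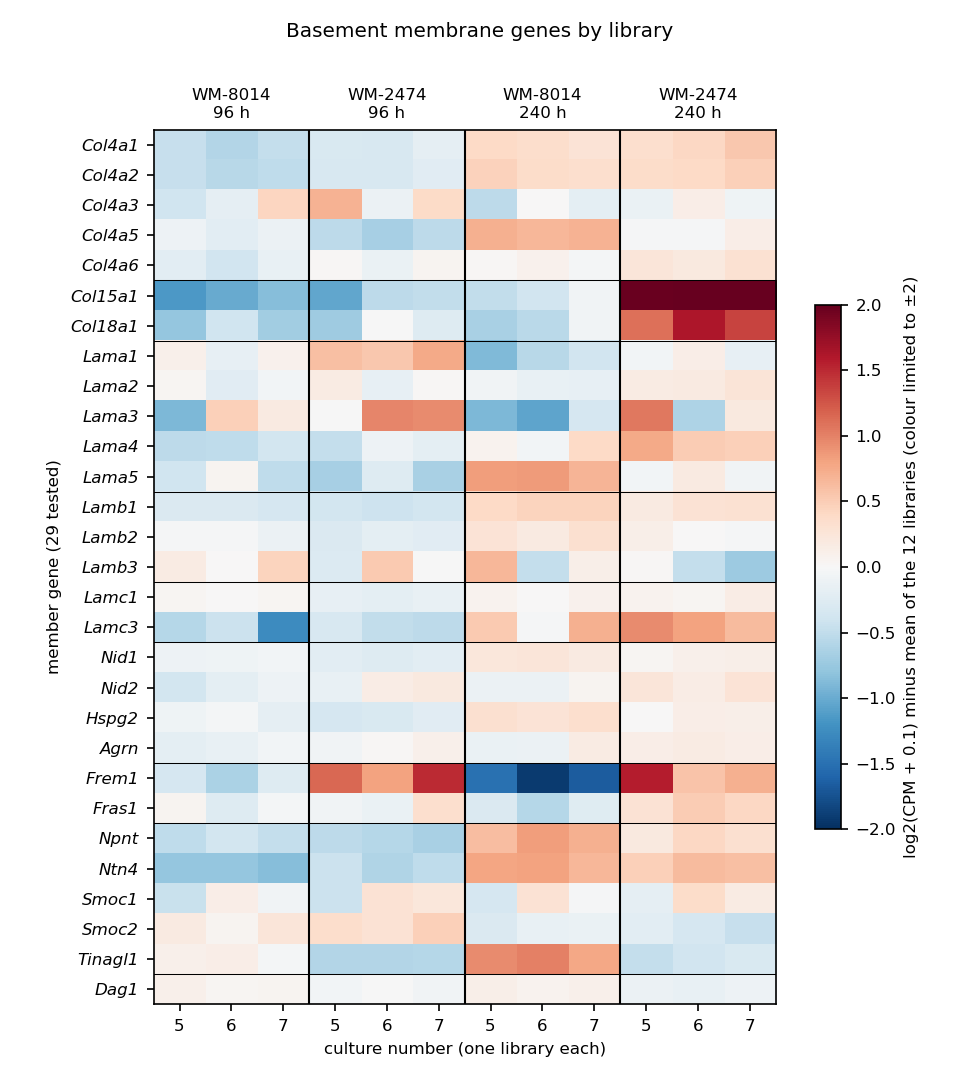
Level of each of the 29 tested basement membrane genes in each of the 12 libraries, as log2(CPM + 0.1) minus the gene's mean over all libraries, with WM-8014 left of WM-2474 at each time. Col15a1 and Col18a1 were high in the WM-2474 240 h libraries alone, at 65.7 to 68 and 134 to 192 CPM, and Frem1 was low in the WM-8014 240 h libraries, at 0.277 to 0.404 CPM.

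WM-8014 was compared with WM-2474 at the same dose at each time, to ask how the inhibitor changed these genes. At 96 h, 7 of the 29 tested genes were higher with WM-8014, 9 were lower and 13 did not pass (adjusted p under 0.05 by edgeR's quasi-likelihood test with Benjamini-Hochberg adjustment over 14136 genes), a share of 55.2%, against 22.8% of all genes tested (10.9% higher and 11.8% lower). At 240 h, 10 were higher, 8 were lower and 11 did not pass, which is 62.1%, against 42.6% of all genes (21.2% higher and 21.4% lower). The lower calls at 96 h rested on few libraries: there were 4 without the culture 6 library of WM-8014 at 96 h and 4 without the culture 7 library of WM-2474 at 96 h, and without the Stag3-low libraries there were 4 higher and 2 lower.

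The changes were small for most genes and went both ways. The median log2 fold change over the 29 genes was -0.22 at 96 h and -0.09 at 240 h, against 6.3e-05 and 0.00506 over all genes, and the median absolute log2 fold change was 0.23 and 0.28, against 0.12 and 0.18. A fold change of at least 2 with a call was reached at 96 h by Frem1, lower, a share to set beside 1.27% of all genes. At 240 h it was reached by Tinagl1, higher, and by Col15a1, Col18a1 and Frem1, lower, beside 5.02% of all genes. Of the 16 genes called at 96 h and the 18 called at 240 h, 11 were called at both, which is 68.8% and 61.1% of each list. Col4a5, Lamb2, Nid1, Hspg2, Tinagl1 and Dag1 were higher with WM-8014 at both times, Col4a6, Col15a1, Nid2 and Frem1 were lower at both, and Ntn4 was lower at 96 h and higher at 240 h.

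**Figure D2:**
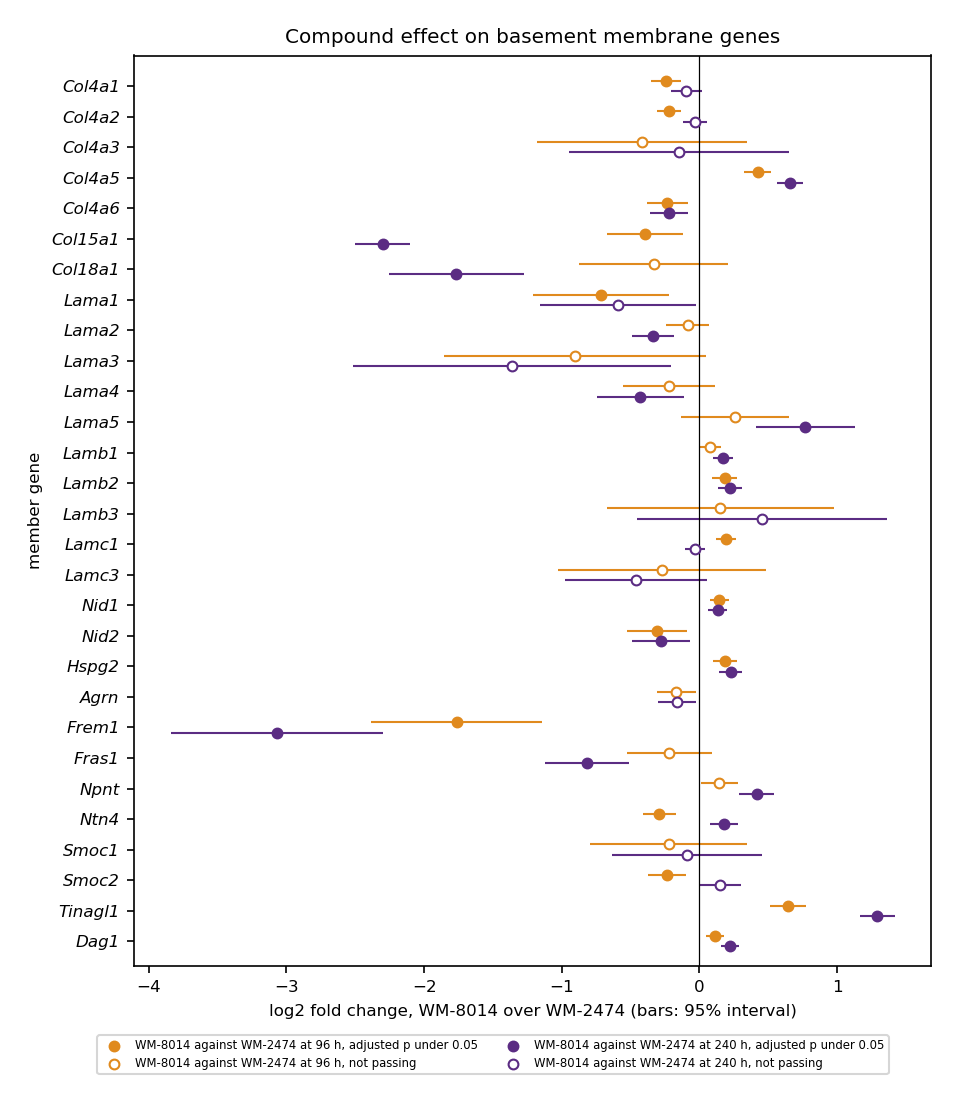
Log2 fold change of each tested gene, WM-8014 over WM-2474, at 96 h and at 240 h, with the 95% interval as a bar; filled points passed at an adjusted p under 0.05. Tinagl1 lies farthest to the right at 240 h, at 1.29, and Frem1 farthest to the left, at -3.07, while most genes lie close to 0.

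The effect of the compound differed between the times for 8 of the 29 genes (27.6%, against 10.7% of all genes) by the same edgeR test of the difference itself. It was more positive at 240 h for 5 genes, Col4a2, Col4a5, Ntn4, Smoc2 and Tinagl1, and more negative for 3, Col15a1, Col18a1 and Lamc1, beside 5.15% and 5.53% of all genes. These counts also moved with single libraries. There were 3 more positive without the culture 5 library of WM-2474 at either time and 2 without the culture 7 library of WM-2474 at 96 h. Without the Stag3-low libraries there were 3 more positive and 1 more negative, and with culture as a block 7 and 5.

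The network-forming collagen IV genes come in pairs that lie head to head. Col4a1 (chromosome 8, 11198423 to 11312889, minus strand) and Col4a2 (chromosome 8, 11312805 to 11449287, plus strand) encode the chains of the collagen IV found in nearly all basement membranes. The RefSeq start sites used for the windows below, 11312826 for Col4a1 and 11312805 for Col4a2, lie 21 bases apart. The Col4a1 site lies inside the annotated gene span, which reaches farther upstream. The windows from 250 bases before to 50 bases after each start site, from RefSeq on GRCm38.p6, the assembly of mm10, are shown because both genes had fold changes of the same sign in each comparison below, and the windows have 78 bases in common. They are written 5′ to 3′ on the strand of each gene, Col4a1 at chr8:11312777-11313076 and Col4a2 at chr8:11312555-11312854, with capitals for matches to CCAAT or GGGCGG on either strand.
Col4a1: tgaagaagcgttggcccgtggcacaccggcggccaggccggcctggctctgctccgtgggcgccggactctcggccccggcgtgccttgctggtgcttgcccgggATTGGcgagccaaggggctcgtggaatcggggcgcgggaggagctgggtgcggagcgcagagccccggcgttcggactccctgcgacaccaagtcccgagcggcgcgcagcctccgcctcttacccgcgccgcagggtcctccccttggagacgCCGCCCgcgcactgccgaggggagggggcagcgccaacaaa
Col4a2: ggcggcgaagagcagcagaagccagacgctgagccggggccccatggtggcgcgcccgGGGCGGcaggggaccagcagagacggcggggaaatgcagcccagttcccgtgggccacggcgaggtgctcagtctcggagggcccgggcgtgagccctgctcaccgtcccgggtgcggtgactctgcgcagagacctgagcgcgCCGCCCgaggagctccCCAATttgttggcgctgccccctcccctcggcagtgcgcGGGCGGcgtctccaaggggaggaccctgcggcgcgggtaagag
The Col4a1 window holds 1 CCAAT and 1 GGGCGG, the Col4a2 window 1 CCAAT and 3 GGGCGG, and TATAAA, also searched on both strands, is in neither. The GGGCGG match of Col4a1 lies in the bases in common and is also 1 of the 3 of Col4a2. Of all 32851 RefSeq windows of this length, 37.4% hold CCAAT, 35.7% GGGCGG and 13.6% TATAAA. Guanine and cytosine make up 74% and 73.7% of the bases. A match is a description of letters, not a binding site.

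Both genes were slightly lower with WM-8014 at 96 h. Col4a1 was at 964, 892 and 959 CPM in WM-8014 cultures 5, 6 and 7, against 1079, 1071 and 1180 CPM in WM-2474 cultures 5, 6 and 7 (log2 fold change -0.24, SE 0.0528, edgeR adjusted p = 0.00332). Col4a2 was at 802, 755 and 777 CPM with WM-8014, against 889, 885 and 945 CPM with WM-2474 (log2 fold change -0.22, SE 0.0416, edgeR adjusted p = 0.000628). For both genes every WM-8014 library was below every WM-2474 library. Without the Stag3-low libraries the adjusted p was 0.107 for Col4a1 and 0.0722 for Col4a2, the highest of 18 alternatives, whose lowest were 0.000165 and 2.71e-06.

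At 240 h no difference of either gene passed. Col4a1 was at 1763, 1694 and 1610 CPM with WM-8014 and 1685, 1783 and 1942 CPM with WM-2474 (log2 fold change -0.09, 95% interval -0.21 to 0.02). Col4a2 was at 1524, 1427 and 1391 CPM with WM-8014 and 1422, 1464 and 1548 CPM with WM-2474 (log2 fold change -0.03, 95% interval -0.12 to 0.05). The groups overlapped for both genes, culture 5 being highest with WM-8014 and lowest with WM-2474. Without the culture 5 library of WM-2474 at 240 h, Col4a1 passed as lower (log2 fold change -0.15, adjusted p = 0.0299, of a range of 0.0299 to 0.588). For Col4a2 the effects at the 2 times differed (0.19, SE 0.0585, edgeR adjusted p = 0.0401), but that call was lost, at adjusted p 0.0508 to 0.139, without any 1 of the culture 6 or 7 libraries of WM-8014 at 96 h, the culture 5 or 7 libraries of WM-2474 at 96 h, or the culture 5 or 6 libraries of either compound at 240 h. Over all 18 alternatives its adjusted p ran from 0.0119 to 0.281.

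Both genes were higher at the later time under each compound. Col4a1 was higher at 240 h than at 96 h by 0.85 on the log2 scale under WM-8014 (SE 0.053, edgeR adjusted p = 5.92e-10) and by 0.70 under WM-2474 (SE 0.0527, edgeR adjusted p = 1.52e-08). Col4a2 was higher by 0.90 under WM-8014 and by 0.71 under WM-2474 (edgeR adjusted p = 1.73e-13 and 1.66e-11). The ratio of the 2 chains per kilobase stayed between 1.12 and 1.22 in the 12 libraries.

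Col4a5 (chromosome X, 141475370 to 141689236, plus strand) and Col4a6 (chromosome X, 141165403 to 141474095, minus strand) form the second pair. COL4A5 chains assemble with alpha3 and alpha4 in the kidney filter and with alpha6 chains in other membranes, and human COL4A5 is mutated in Alport syndrome. Their start sites lie 1343 bases apart and their windows share no base. The windows are shown because the neighbours differed in opposite directions between the compounds, though both were higher at 240 h than at 96 h. Col4a5 is at chrX:141475169-141475468 and Col4a6 at chrX:141474027-141474326, with the same motifs in capitals.
Col4a5: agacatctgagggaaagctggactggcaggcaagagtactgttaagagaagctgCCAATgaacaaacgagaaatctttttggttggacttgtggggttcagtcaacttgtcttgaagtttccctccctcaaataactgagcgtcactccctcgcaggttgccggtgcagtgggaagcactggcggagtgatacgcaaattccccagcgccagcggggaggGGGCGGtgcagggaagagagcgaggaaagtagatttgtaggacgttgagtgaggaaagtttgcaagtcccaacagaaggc
Col4a6: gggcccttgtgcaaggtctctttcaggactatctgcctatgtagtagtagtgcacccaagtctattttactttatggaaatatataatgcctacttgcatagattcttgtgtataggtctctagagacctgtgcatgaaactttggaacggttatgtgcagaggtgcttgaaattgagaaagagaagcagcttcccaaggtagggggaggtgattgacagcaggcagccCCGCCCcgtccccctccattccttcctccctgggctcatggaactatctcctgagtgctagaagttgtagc
The Col4a5 window holds 1 CCAAT and 1 GGGCGG, the Col4a6 window 1 GGGCGG and no CCAAT, and neither holds TATAAA. Guanine and cytosine make up 52.7% and 48.3% of the bases, less than in the Col4a1 and Col4a2 windows.

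Col4a5 was higher with WM-8014 at both times. At 96 h it was at 313, 289.7 and 311 CPM with WM-8014, against 235, 212 and 234 CPM with WM-2474 (log2 fold change 0.42, SE 0.0466, edgeR adjusted p = 4.19e-06). At the later time the levels were 549, 536 and 544 CPM with WM-8014, against 332, 330.3 and 369 CPM with WM-2474 (log2 fold change 0.66, SE 0.0454, edgeR adjusted p = 7.4e-10). The groups did not overlap at either time, and both calls held in all 18 alternatives. The effect was larger at 240 h by 0.24 (SE 0.065, edgeR adjusted p = 0.0226), a call lost at adjusted p 0.0585 to 0.0763 without any 1 of the culture 6 library of WM-8014 at 96 h, the culture 5 or 7 libraries of WM-2474 at 96 h, the culture 5 library of WM-8014 at 240 h, or the culture 5 or 6 libraries of WM-2474 at 240 h. Its adjusted p ran from 0.00281 to 0.0763 over the alternatives.

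Col4a6 was lower with WM-8014. It averaged 22.4 ± 1.8 CPM with WM-8014 and 26.2 ± 1.8 CPM with WM-2474 at 96 h (SD, n = 3 each), a log2 fold change of -0.23 (SE 0.0712, edgeR adjusted p = 0.0208), and 27 ± 1.2 and 31.5 ± 1.1 CPM at 240 h, a log2 fold change of -0.22 (SE 0.0663, edgeR adjusted p = 0.0106). The 96 h call was lost without the culture 6 library of WM-8014 at 96 h (adjusted p = 0.12), without the culture 7 library of WM-2474 at 96 h (0.17) and without the Stag3-low libraries (0.16), within a range of 0.0107 to 0.17. The 240 h call was lost without the culture 7 library of WM-8014 at 240 h (adjusted p = 0.0529, range 0.00608 to 0.0529). Both genes were higher at 240 h than at 96 h, Col4a5 by 0.83 under WM-8014 and 0.60 under WM-2474, and Col4a6 by 0.27 and 0.26 on the log2 scale, all 4 passing. The Col4a6 call under WM-2474 was lost without the Stag3-low libraries (adjusted p = 0.145, range 0.00116 to 0.145).

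The make-up of the collagen IV transcripts differed between the compounds. Per kilobase, Col4a5 transcripts were 13.9 ± 0.6 times those of Col4a6 with WM-8014 and 8.87 ± 0.15 times with WM-2474 at 96 h, and 20.6 ± 1.1 and 11.1 ± 0.36 times at 240 h (SD, n = 3 each). Col4a5 made up 14.9, 14.8 and 15.1% of the collagen IV transcripts per kilobase with WM-8014 at 96 h, against 10.6, 9.7 and 9.83% with WM-2474. By 240 h the share was 14.3, 14.6 and 15.3% with WM-8014, against 9.59, 9.19 and 9.51% with WM-2474. All 6 WM-8014 libraries were above all 6 WM-2474 libraries. Shares are descriptions without a test.

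Col4a3 and Col4a4, whose chains are typical of the kidney filter, were near the limit of detection. Col4a3 ran from 0.303 to 0.836 CPM over the libraries, passed in no comparison, and had a log2 fold change of -0.42 at 96 h (95% interval -1.18 to 0.34) and -0.15 at 240 h (95% interval -0.95 to 0.65). Col4a4 had 2 to 20 reads per library, 97 in all, and was not tested. No change of either gene was detectable at this depth.

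Collagens XV and XVIII, the multiplexins, carry glycosaminoglycan chains, sit on the outer face of basement membranes, and release the fragments restin and endostatin. Both were far lower with WM-8014 at 240 h. Col15a1 (chromosome 4, 47207655 to 47313167) was at 11.8, 12.7 and 15.8 CPM with WM-8014, against 65.7, 66.1 and 68 CPM with WM-2474, a 4.92-fold lower level (log2 fold change -2.30, SE 0.0953, edgeR adjusted p = 1.08e-11). Col18a1 (chromosome 10, 77052178 to 77166530) was at 39.8, 42.8 and 59.3 CPM with WM-8014, against 134, 192 and 159 CPM with WM-2474, a 3.4-fold lower level (log2 fold change -1.77, SE 0.214, edgeR adjusted p = 0.000196). The highest WM-8014 library was below the lowest WM-2474 library for both genes by more than 2-fold, and both calls held in all 18 alternatives.

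At 96 h the differences in the multiplexins were small. Col15a1 was at 7.47, 8.25 and 9.2 CPM with WM-8014, against 8.08, 11.5 and 11.8 CPM with WM-2474 (log2 fold change -0.40, SE 0.13, edgeR adjusted p = 0.036). The groups overlapped, because the WM-2474 library of culture 5 lay among the WM-8014 libraries. This call was lost when the libraries were thinned to 1 depth (adjusted p = 0.316) and, at 0.0502 to 0.284, without any 1 of the culture 5 or 6 libraries of WM-8014 at 96 h, the culture 6 or 7 libraries of WM-2474 at 96 h, or the culture 7 library of WM-2474 at 240 h. Without both Stag3-low libraries its sign turned (log2 fold change 0.04, adjusted p = 0.939, within a range of 0.00339 to 0.939). Col18a1 was at 36.6, 47.4 and 38.6 CPM with WM-8014 and 38.2, 62.1 and 52.2 CPM with WM-2474, overlapping, and did not pass (log2 fold change -0.33, 95% interval -0.87 to 0.21).

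Over time the multiplexins were higher at 240 h, most of all under the inactive compound. Under WM-2474, Col15a1 was 6.09-fold higher at 240 h than at 96 h (log2 fold change 2.61, edgeR adjusted p = 1e-12) and Col18a1 3.15-fold higher (log2 fold change 1.65, edgeR adjusted p = 0.00031). Under WM-8014, Col15a1 was 1.63-fold higher at 240 h (log2 fold change 0.70, edgeR adjusted p = 0.000206), and Col18a1 did not pass (log2 fold change 0.22, 95% interval -0.33 to 0.77). The difference between the compound effects at 240 h and 96 h was -1.90 for Col15a1 (SE 0.166, edgeR adjusted p = 2.26e-06), which held in all alternatives, and -1.44 for Col18a1 (SE 0.319, edgeR adjusted p = 0.0242). The Col18a1 call was lost, at adjusted p 0.0503 to 0.0663, without any 1 of the culture 6 library of WM-8014 at 96 h, the culture 7 library of WM-2474 at 96 h, the culture 5 or 6 libraries of WM-8014 at 240 h, or the culture 7 library of WM-2474 at 240 h. It was 0.0641 without the Stag3-low libraries, and the range over the alternatives was 0.000375 to 0.0663.

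**Figure D3:**
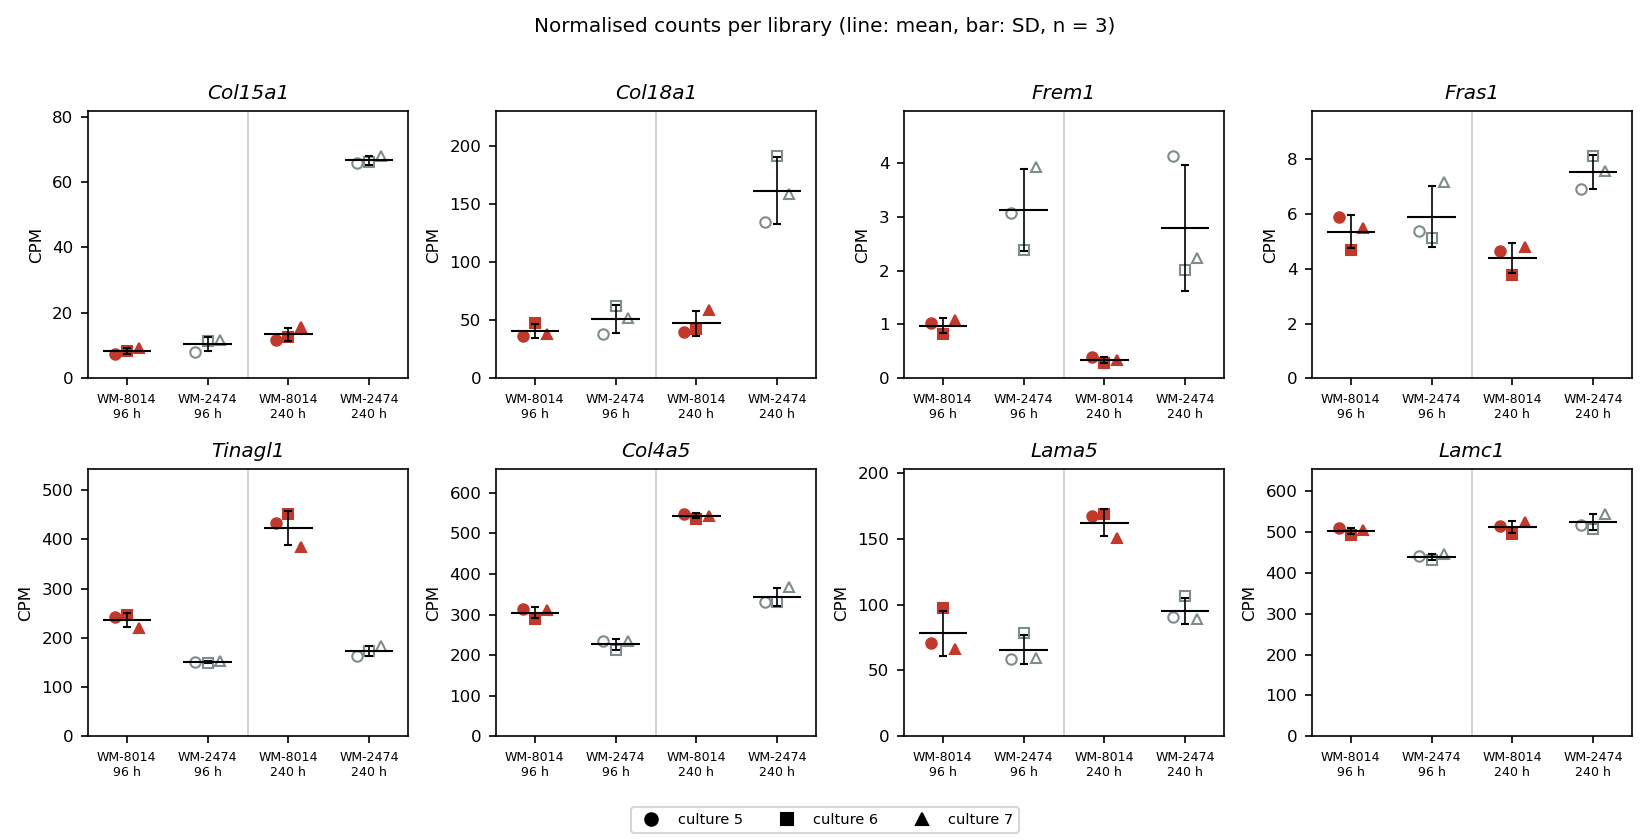
CPM of 8 basement membrane genes in each library, WM-8014 in filled and WM-2474 in open symbols, with a symbol for each culture, the group mean as a line and the SD as a bar (n = 3). Col15a1, Col18a1, Fras1 and Lama5 separate by compound at 240 h alone, Col4a5, Frem1 and Tinagl1 at both times, and Lamc1 at 96 h alone.

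Laminin alpha chains carry the cell-binding end of the trimer and give each laminin its tissue identity. Lama4 is typical of mesenchyme and endothelium, Lama5 of epithelia and vessels, Lama2 of muscle and nerve, and Lama1 of the early embryo. With WM-8014 at 240 h, Lama5 was higher, Lama4 and Lama2 were lower, and Lama1 and Lama3 did not pass. Lama5 was at 167, 169 and 150.4 CPM with WM-8014, against 90.2, 106 and 88.7 CPM with WM-2474 (log2 fold change 0.77, SE 0.157, edgeR adjusted p = 0.0042). Lama4 was at 140.2, 128 and 175 CPM with WM-8014, against 226, 188 and 184 CPM with WM-2474 (log2 fold change -0.43, SE 0.138, edgeR adjusted p = 0.034). The groups did not overlap for either gene, though for Lama4 they came close, at 175 and 184 CPM in culture 7.

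The Lama5 call held in all alternatives, while the Lama4 call did not. For Lama4 the adjusted p was 0.0538 with culture as a block, 0.0915 and 0.117 without the culture 5 and 6 libraries of WM-8014 at 240 h, 0.0956 and 0.0532 without the culture 5 and 6 libraries of WM-2474 at 240 h, and 0.0627 when the libraries were thinned to 1 depth, within a range of 0.00746 to 0.117. Lama2 averaged 60.2 ± 2.2 CPM with WM-8014 and 75.7 ± 2.9 CPM with WM-2474 at 240 h (SD, n = 3 each; log2 fold change -0.34, SE 0.0714, edgeR adjusted p = 0.00133), which held in all alternatives. The difference between its effects at 240 h and 96 h, -0.25, did not pass (edgeR adjusted p = 0.142, range 0.0329 to 0.712) but did with the block (0.0339), without the culture 6 library of WM-8014 at 96 h (0.0407) and without the culture 5 library of WM-2474 at 96 h (0.0329).

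At 96 h Lama5, Lama4 and Lama2 did not pass. Lama5 was at 70.8, 97.3 and 66.2 CPM with WM-8014 and 59, 78.3 and 59.6 CPM with WM-2474 (log2 fold change 0.26, 95% interval -0.13 to 0.65). Culture 6 was highest in both groups, and WM-8014 was above WM-2474 within each culture. With culture as a block, Lama5 passed at 96 h (edgeR adjusted p = 0.0369, within a range of 0.0369 to 0.783). The difference between its effects at 240 h and 96 h, 0.51, passed with the block alone (edgeR adjusted p = 0.00562, against 0.237 without it, range 0.00562 to 0.62). Lama4 was at 92.6, 93.8 and 103 CPM with WM-8014 and 96, 124 and 116 CPM with WM-2474 (log2 fold change -0.22, 95% interval -0.56 to 0.11), and Lama2 averaged 62.3 ± 5.6 and 66.3 ± 7.6 CPM (log2 fold change -0.08, 95% interval -0.24 to 0.07).

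Lama1 was low and Lama3 lower. Lama1 was at 1.09, 0.887 and 1.08 CPM with WM-8014, against 1.58, 1.52 and 1.78 CPM with WM-2474 at 96 h, without overlap (log2 fold change -0.71, SE 0.237, edgeR adjusted p = 0.0333). At 240 h it was at 0.504, 0.657 and 0.75 CPM with WM-8014 and 0.965, 1.11 and 0.891 CPM with WM-2474, also without overlap, but did not pass (log2 fold change -0.59, 95% interval -1.16 to -0.02, edgeR adjusted p = 0.0918). The 96 h call was lost with DESeq2 (adjusted p = 0.183), with no filter on low counts (0.0702), with thinning (0.132), and at 0.0593 to 0.201 without any 1 of the WM-8014 96 h libraries or the culture 7 library of WM-2474 at 96 h. It was 0.405 without the Stag3-low libraries, and the range was 0.0319 to 0.405. Lama3, which encodes the alpha chain of epithelial laminin-332, ran from 0.173 to 1.07 CPM. Its log2 fold change was -0.90 at 96 h (95% interval -1.85 to 0.05) and -1.36 at 240 h (95% interval -2.52 to -0.21, edgeR adjusted p = 0.0537). The 240 h value passed with no filter on low counts (0.0354) and without any 1 of the culture 5 library of WM-8014 at 96 h, the culture 5 library of WM-2474 at 96 h, the culture 7 library of WM-8014 at 240 h or the culture 6 library of WM-2474 at 240 h (0.0117 to 0.0496), within a range of 0.0117 to 0.31.

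As a share of laminin alpha transcripts per kilobase, Lama4 came first in every library. With WM-8014 at 240 h Lama5 made up 33, 35.1 and 27.4%, against 14.9, 19.3 and 16.8% with WM-2474. Lama4 made up 52.3, 50.3 and 59.9% with WM-8014 and 70.4, 64.5 and 65.5% with WM-2474. These shares did not overlap between the compounds at 240 h. At 96 h, Lama5 made up 21.7, 28.5 and 19.7% with WM-8014 and 18, 20.4 and 16.6% with WM-2474, and the groups overlapped.

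**Figure D4:**
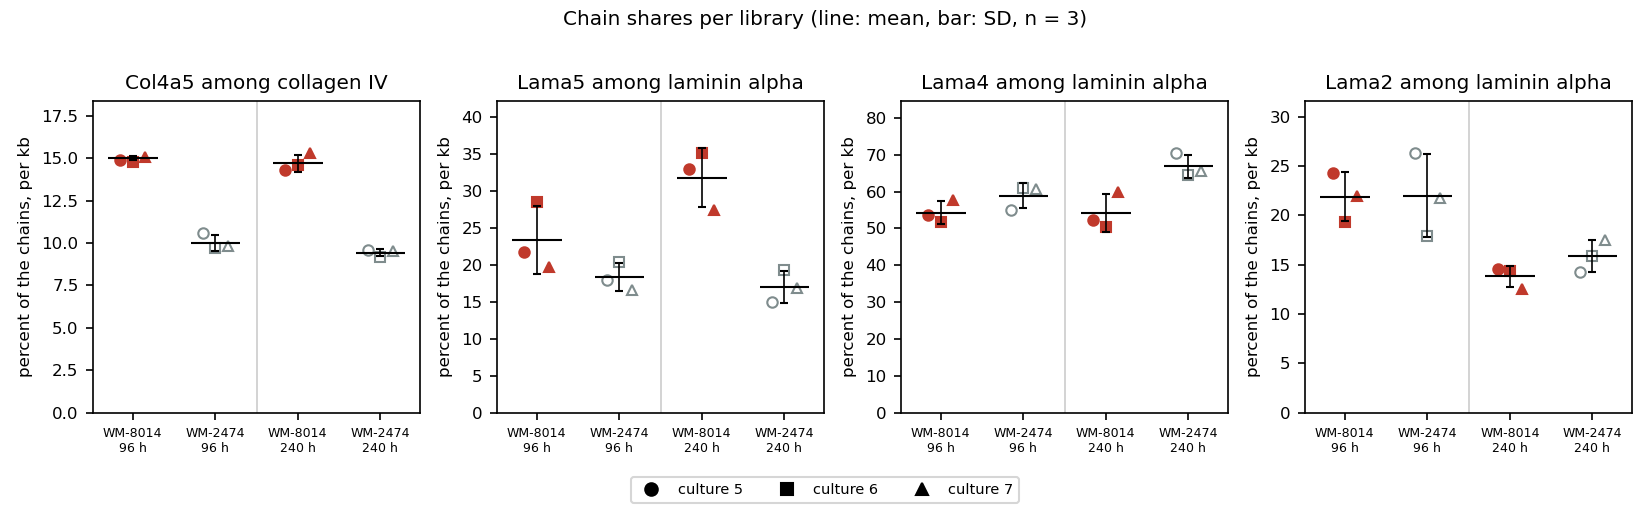
Share of each chain among the transcripts of its family, per kilobase of the deposited gene length, for Col4a5 among the 6 collagen IV genes and for Lama5, Lama4 and Lama2 among the 5 laminin alpha genes, in each library (line, mean; bar, SD, n = 3). Col4a5 is at 14.3 to 15.3% in the WM-8014 libraries and at 9.19 to 10.6% in the WM-2474 libraries.

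The beta and gamma chains are shared by many laminins. Lamb1 and Lamb2 take part in laminins of fibroblasts, vessels and muscle, Lamc1 in nearly all laminins, and Lamb3 and Lamc3 in few. At 96 h Lamb1 was at 468, 465 and 450.3 CPM with WM-8014 and 442, 428 and 440.3 CPM with WM-2474, without overlap, but did not pass (log2 fold change 0.08, 95% interval 0.0024 to 0.15). The 240 h levels were 753, 774 and 772 CPM with WM-8014, against 643, 696 and 704 CPM with WM-2474, again without overlap (log2 fold change 0.17, SE 0.0357, edgeR adjusted p = 0.000517). Lamb2 was higher with WM-8014 at both times, averaging 364 ± 14 CPM with WM-8014 and 321 ± 9 CPM with WM-2474 at 96 h, and 452 ± 23 and 387 ± 20 CPM at 240 h (SD, n = 3 each). Its log2 fold changes were 0.18 and 0.22 (edgeR adjusted p = 0.00438 and 0.000247). The 96 h value missed the threshold without the Stag3-low libraries (adjusted p = 0.0506, range 0.000687 to 0.0506).

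Lamc1 (chromosome 1, 153218922 to 153332786) had a difference at 96 h that was not seen at 240 h. At 96 h it was at 509, 493 and 505 CPM with WM-8014, against 440, 432 and 446 CPM with WM-2474 (log2 fold change 0.19, SE 0.035, edgeR adjusted p = 0.000463), a call that held in all alternatives. By 240 h Lamc1 was at 516, 495 and 525 CPM with WM-8014 and 518, 507 and 545 CPM with WM-2474 (log2 fold change -0.03, 95% interval -0.10 to 0.04). The groups were apart at 96 h and overlapped at 240 h. The difference between the effects was -0.22 (SE 0.0493, edgeR adjusted p = 0.00459), lost without the Stag3-low libraries (0.0676, range 0.00111 to 0.0676). From 96 to 240 h Lamc1 rose by 0.25 on the log2 scale under WM-2474 (edgeR adjusted p = 5.8e-06) and did not pass under WM-8014 (log2 fold change 0.03, 95% interval -0.05 to 0.10).

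Lamb1 was higher at 240 h than at 96 h under both compounds, by 0.73 with WM-8014 and 0.64 with WM-2474 on the log2 scale. Lamb2 was higher by 0.31 and 0.27. Lamb3 ran from 0.248 to 0.807 CPM and passed in no comparison. Lamc3 ran from 0.338 to 1.93 CPM and passed in neither compound comparison, with log2 fold changes of -0.27 at 96 h (95% interval -1.02 to 0.48) and -0.46 at 240 h (95% interval -0.98 to 0.05). It was higher at 240 h than at 96 h, 2.29-fold under WM-8014 and 2.61-fold under WM-2474 (edgeR adjusted p = 0.00492 and 0.000278), the value under WM-2474 being lost without the Stag3-low libraries (0.104, range 7.68e-05 to 0.104).

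Nidogen-1 and nidogen-2 join laminin to collagen IV, and their genes moved in opposite directions. Nid1 was at 1138, 1156 and 1179 CPM with WM-8014, against 1059, 1025 and 1062 CPM with WM-2474 at 96 h (log2 fold change 0.14, SE 0.0335, edgeR adjusted p = 0.004), and at 1430, 1454 and 1393 CPM, against 1263, 1313 and 1331 CPM, at 240 h (log2 fold change 0.13, SE 0.0334, edgeR adjusted p = 0.00305). Nid2 was at 74.2, 84.2 and 89.2 CPM with WM-8014, against 86.4, 107 and 109.8 CPM with WM-2474 at 96 h (log2 fold change -0.31, SE 0.0975, edgeR adjusted p = 0.0474), and at 88.4, 88.3 and 99.9 CPM, against 114, 106 and 116 CPM, at 240 h (log2 fold change -0.28, SE 0.0948, edgeR adjusted p = 0.0364). The groups did not overlap for Nid1 at either time or for Nid2 at 240 h, while at 96 h the WM-2474 library of culture 5 lay below the WM-8014 library of culture 7 for Nid2.

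The Nid2 calls were close to the threshold. At 96 h the adjusted p passed 0.05 (0.052 to 0.171) without any 1 of the culture 5 or 6 libraries of WM-8014 at 96 h, the culture 6 or 7 libraries of WM-2474 at 96 h, the culture 5 or 6 libraries of WM-8014 at 240 h, or any of the 3 WM-2474 240 h libraries. It was 0.0925 with no filter on low counts, 0.0524 with thinning and 0.768 without the Stag3-low libraries, where the log2 fold change was -0.07. With the culture block it was 0.00144, and the range was 0.00121 to 0.768. At 240 h the call was lost with no filter (0.0757) and at 0.0533 to 0.127 without any 1 of the culture 6 library of WM-8014 at 96 h, the culture 5 or 6 libraries of WM-8014 at 240 h, or the culture 5 or 7 libraries of WM-2474 at 240 h, within a range of 0.000539 to 0.127. Over time Nid2 passed as higher at 240 h with the block, under WM-8014 (0.04, against 0.209 without it, range 0.04 to 0.496) and under WM-2474 (0.0479, against 0.299 without it, range 0.0169 to 0.645), where it also passed without the Stag3-low libraries (0.0169). The Nid1 call at 96 h was lost without the Stag3-low libraries (0.161, range 0.000988 to 0.161). Exons of Nid2 share 437 bases with Rtraf on the opposite strand, and reads of both genes may not be separated since the strand setting of the counting is not given in the sources used here. The same limit holds for opposite-strand exon overlaps of Lama2 (631 bases), Col4a3 (563), Lamc3 (382), Lama3 (197), Fras1 (159) and Nid1 (143). Overlaps of Col4a1, Col4a2 and Col15a1 with opposite-strand genes were 14 to 43 bases.

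Perlecan, encoded by Hspg2 (chromosome 4, 137468751 to 137570630), is the large heparan sulfate proteoglycan of basement membranes and had the most reads of the 32 genes. It was at 1997, 2084 and 1876 CPM with WM-8014, against 1697, 1730 and 1813 CPM with WM-2474 at 96 h (log2 fold change 0.18, SE 0.0415, edgeR adjusted p = 0.00272). By 240 h Hspg2 was at 2654, 2589 and 2676 CPM with WM-8014, against 2143, 2326 and 2299 CPM with WM-2474 (log2 fold change 0.23, SE 0.0414, edgeR adjusted p = 0.000133). The groups did not overlap at either time, and both calls held in all alternatives. Hspg2 was also higher at 240 h than at 96 h, by 0.41 under WM-8014 and 0.37 under WM-2474 on the log2 scale, and Nid1 by 0.30 and 0.31, all 4 passing.

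Agrin, encoded by Agrn, is a heparan sulfate proteoglycan that binds laminin and dystroglycan. It averaged 43.4 ± 2.1 CPM with WM-8014 and 48.3 ± 3.1 CPM with WM-2474 at 96 h, and 47 ± 5.5 and 52.6 ± 0.72 CPM at 240 h (SD, n = 3 each). Neither difference passed (log2 fold changes -0.17 and -0.16, edgeR adjusted p = 0.0816 and 0.0549). At 96 h it passed with the culture block (0.045), without the culture 5 library of WM-2474 at 96 h (0.049) and without the culture 7 library of WM-8014 at 240 h (0.0225), in a range of 0.0225 to 0.808. At 240 h it passed with the culture block (0.0128), with no filter (0.0343), without the culture 5 library of WM-2474 at 96 h (0.0497) and without the culture 7 library of WM-8014 at 240 h (0.000933), in a range of 0.000933 to 0.291.

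FRAS1, FREM1 and FREM2 form a complex that anchors the epidermis of the embryo to the dermis, and loss of any of them gives blistering and fused eyelids in mice. FREM1 is the part that dermal cells secrete. Frem1 (chromosome 4, 82897920 to 83052506) was at 1.02, 0.818 and 1.08 CPM with WM-8014, against 3.06, 2.39 and 3.91 CPM with WM-2474 at 96 h, a 3.39-fold lower level (log2 fold change -1.76, SE 0.298, edgeR adjusted p = 0.000277). By 240 h Frem1 was at 0.404, 0.277 and 0.346 CPM with WM-8014, from 4, 8 and 6 reads, against 4.13, 2 and 2.23 CPM with WM-2474, from 77, 45 and 45 reads. That was 8.39-fold lower (log2 fold change -3.07, SE 0.37, edgeR adjusted p = 1.25e-06). Every WM-8014 library was below every WM-2474 library at both times, and both calls held in all alternatives.

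Frem1 fell over time under WM-8014, by 1.58 on the log2 scale (SE 0.478, edgeR adjusted p = 0.00953), a call lost without the culture 6 library of WM-8014 at 240 h (0.0643, range 0.00164 to 0.0643). Under WM-2474 its change over time did not pass (log2 fold change -0.27, 95% interval -0.75 to 0.21). It passed as lower without the culture 5 library of WM-2474 at 240 h (0.0215, range 0.0215 to 0.998), in which Frem1 was highest. The difference between the effects at the 2 times did not pass (-1.30, 95% interval -2.42 to -0.19, edgeR adjusted p = 0.133).

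Fras1 (chromosome 5, 96373777 to 96784733) was lower with WM-8014 at 240 h. It was at 4.64, 3.77 and 4.79 CPM with WM-8014, against 6.92, 8.14 and 7.58 CPM with WM-2474 (log2 fold change -0.82, SE 0.146, edgeR adjusted p = 0.000105), without overlap and in all alternatives. At 96 h it was at 5.91, 4.71 and 5.48 CPM with WM-8014 and 5.38, 5.14 and 7.19 CPM with WM-2474, with overlap (log2 fold change -0.22, 95% interval -0.53 to 0.09). The difference between the effects did not pass (-0.60, edgeR adjusted p = 0.0732), but did with culture as a block (0.0356) and without the culture 7 library of WM-2474 at 96 h (0.0168, range 0.0168 to 0.249).

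Frem2 and Frem3 were not tested. Frem2 had 2, 1 and 2 reads with WM-8014 and 2, 0 and 11 reads with WM-2474 at 96 h, and 1, 1 and 0 reads with WM-8014 and 6, 4 and 4 reads with WM-2474 at 240 h. Frem3 had 2 reads in all, in 2 of 12 libraries. Of 3 listed factors that assemble or bind the complex, 2 were tested. Itga8, the alpha subunit of the integrin that binds nephronectin and FREM1, averaged 103 ± 19 CPM with WM-8014 and 168 ± 22 CPM with WM-2474 at 240 h (SD, n = 3 each; log2 fold change -0.71, SE 0.153, edgeR adjusted p = 0.00539). At 96 h Itga8 averaged 23.6 ± 2.8 CPM with WM-8014 and 35.6 ± 3.9 CPM with WM-2474 and did not pass (log2 fold change -0.63, edgeR adjusted p = 0.0572, range 0.00216 to 0.409), but passed with culture as a block (0.00216) and with DESeq2 (0.00303), and at 0.0303 and 0.0312 without the culture 6 or the culture 7 library of WM-8014 at 240 h. Grip1, a scaffold that brings FRAS1 and FREM2 to the cell surface, was under 1 CPM on average in each group. It was called lower at both times (edgeR adjusted p = 0.0289 at 96 h, range 0.0169 to 0.619, and 0.0363 at 240 h, range 0.0084 to 0.255). The 96 h call was lost, at 0.053 to 0.125, without any 1 of the culture 5 or 7 libraries of WM-8014 or the culture 6 or 7 libraries of WM-2474 at 96 h. It was also lost with DESeq2 (0.0572), with thinning (0.28) and without the Stag3-low libraries. The 240 h call was lost, at 0.0575 to 0.255, without any 1 of the culture 6 or 7 libraries of WM-8014 or any WM-2474 library at 240 h. DESeq2 (0.149) and thinning (0.195) also ended the 240 h call.

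The smaller secreted proteins moved separately. TINAGL1, a matricellular protein related to cathepsins that binds laminin and integrins, had the largest positive fold change of the 29 genes at both times. Tinagl1 (chromosome 4, 130165600 to 130175122) was at 242, 247 and 219 CPM with WM-8014, against 150.3, 149.7 and 152 CPM with WM-2474 at 96 h (log2 fold change 0.64, SE 0.061, edgeR adjusted p = 8.96e-06). By 240 h Tinagl1 was at 433, 452 and 384 CPM with WM-8014, against 163, 173 and 183 CPM with WM-2474, a 2.45-fold higher level (log2 fold change 1.29, SE 0.0598, edgeR adjusted p = 5.17e-10). The groups were well apart at both times.

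The Tinagl1 effect was larger at 240 h by 0.65 (SE 0.0849, edgeR adjusted p = 0.000204), and this and both compound calls held in all alternatives. From 96 to 240 h it rose 1.79-fold under WM-8014 (edgeR adjusted p = 2.14e-08) and 1.15-fold under WM-2474 (edgeR adjusted p = 0.0192). The rise under WM-2474 was lost with thinning (0.0591), at 0.0507 to 0.0826 without any 1 of the culture 5 or 6 libraries of WM-2474 at 96 h or the culture 6 or 7 libraries of WM-2474 at 240 h, and at 0.192 without the Stag3-low libraries, in a range of 0.00145 to 0.192.

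Netrin-4 binds the laminin gamma1 chain and disturbs laminin networks, and Ntn4 was the gene called in opposite directions at the 2 times. At 96 h it was at 34.6, 34.6 and 32.7 CPM with WM-8014, against 44, 39.2 and 41.7 CPM with WM-2474 (log2 fold change -0.29, SE 0.059, edgeR adjusted p = 0.0012). By 240 h Ntn4 was at 103, 104 and 94.3 CPM with WM-8014, against 82.6, 91.8 and 90.6 CPM with WM-2474 (log2 fold change 0.18, SE 0.049, edgeR adjusted p = 0.00481). All WM-8014 libraries were below all WM-2474 libraries at 96 h and above them at 240 h. The effects differed by 0.47 (SE 0.0767, edgeR adjusted p = 0.000281), and these 3 calls held in all alternatives. Ntn4 rose 2.95-fold from 96 to 240 h under WM-8014 and 2.13-fold under WM-2474 (edgeR adjusted p = 2.61e-15 and 5.88e-13).

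SMOC1 and SMOC2 are calcium-binding relatives of SPARC. Smoc2 was at 44.9, 40.9 and 46.7 CPM with WM-8014, against 50.7, 48.5 and 55.2 CPM with WM-2474 at 96 h (log2 fold change -0.24, SE 0.067, edgeR adjusted p = 0.0151). By 240 h Smoc2 was at 32.3, 35.6 and 36 CPM with WM-8014 and 34.2, 31.5 and 28.6 CPM with WM-2474, with overlap (log2 fold change 0.15, 95% interval 0.01 to 0.30, edgeR adjusted p = 0.0883). The 96 h call was lost without the culture 6 library of WM-8014 at 96 h (0.0824), the culture 7 library of WM-2474 at 96 h (0.155) or both Stag3-low libraries (0.268), in a range of 0.00338 to 0.268, and the 240 h value passed without the culture 5 library of WM-2474 at 240 h (0.0255, range 0.0255 to 0.361). The effects differed by 0.39 (SE 0.0973, edgeR adjusted p = 0.0125), lost without the culture 7 library of WM-2474 at 96 h (0.0622) or both Stag3-low libraries (0.124), in a range of 0.0022 to 0.124. Smoc2 was the gene lower at 240 h than at 96 h under both compounds, by 0.34 under WM-8014 and 0.73 under WM-2474 (log2 fold changes -0.34 and -0.73, edgeR adjusted p = 0.000427 and 3.08e-08).

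Smoc1 averaged 35.1 ± 7 CPM with WM-8014 and 39.8 ± 10 CPM with WM-2474 at 96 h, and 38.1 ± 8.2 and 41.7 ± 7.6 CPM at 240 h (SD, n = 3 each). It differed more between cultures than between compounds, culture 5 being lowest in each of the 4 groups. It did not pass at 96 h (log2 fold change -0.22, 95% interval -0.79 to 0.35) or at 240 h (-0.09, 95% interval -0.64 to 0.46). With culture as a block it passed as lower with WM-8014 at 96 h (edgeR adjusted p = 0.0171, range 0.0171 to 0.883). Nephronectin, encoded by Npnt, is the ligand of integrin alpha8 beta1 in the developing kidney. Npnt averaged 85.3 ± 4.5 CPM with WM-8014 and 77.6 ± 3.2 CPM with WM-2474 at 96 h, where it passed with the block alone (edgeR adjusted p = 0.0242, against 0.121 without it, range 0.0242 to 0.7). At 240 h it averaged 192 ± 15 CPM with WM-8014 and 144 ± 10 CPM with WM-2474 (log2 fold change 0.42, SE 0.0586, edgeR adjusted p = 2.9e-05), and the groups did not overlap. The difference between its effects at the 2 times, 0.27, did not pass (edgeR adjusted p = 0.0599, range 0.00443 to 0.148) but did with the block (0.00443), DESeq2 (0.0398) and thinning (0.021), and at 0.0206 to 0.038 without any 1 of the culture 6 library of WM-8014 at 96 h, the culture 5 library of WM-8014 at 240 h or the culture 6 library of WM-2474 at 240 h.

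Dystroglycan, encoded by Dag1, spans the membrane and links laminin, perlecan and agrin to the dystrophin or utrophin complex inside. Dag1 averaged 436 ± 10 CPM with WM-8014 and 403 ± 9 CPM with WM-2474 at 96 h, and 445 ± 6.2 and 382 ± 6.8 CPM at 240 h (SD, n = 3 each). It was higher with WM-8014 by 0.11 at 96 h (edgeR adjusted p = 0.0162) and by 0.22 at 240 h (edgeR adjusted p = 9.95e-06) on the log2 scale. The 96 h call was lost without the culture 5 library of WM-8014 at 96 h (0.0888), the culture 5 (0.0543) or culture 7 (0.0896) library of WM-2474 at 96 h, or both Stag3-low libraries (0.148), in a range of 0.015 to 0.148. Its level was nearly constant over time, with log2 fold changes of 240 h over 96 h of 0.03 (95% interval -0.04 to 0.10) under WM-8014 and -0.08 (95% interval -0.15 to -0.01, edgeR adjusted p = 0.0541) under WM-2474, the second passing without the culture 7 library of WM-8014 at 96 h (0.0482, range 0.0482 to 0.4).

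Most tested basement membrane genes rose with time in culture. Between 96 and 240 h, 15 of 29 were higher and 2 lower under WM-8014, which is 58.6%, against 49.7% of all genes (24.8% higher and 25.0% lower). Under WM-2474, 18 were higher and 2 lower, which is 69.0%, against 38.9% of all genes (19.8% higher and 19.1% lower). Of the genes called, 16 were called under both compounds, which is 94.1% of the list under WM-8014 and 80% of that under WM-2474, 15 of them higher and 1, Smoc2, lower. Frem1 was called under WM-8014 alone, and Col18a1, Lama1, Lama2 and Lamc1 under WM-2474 alone. Of these 5, the tests of the difference between compounds passed for Col18a1 and Lamc1, as given above. Lower calls were few and moved with 1 library: under WM-8014 there was 1 without the 240 h library of culture 6, and under WM-2474 there was 1 without the 96 h library of culture 7 and 4 without the 240 h library of culture 5.

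The median log2 fold change over time was 0.27 under each compound, against -0.02 and -0.01 over all genes. At least 2-fold changes with a call were Lama5, Lamc3, Npnt and Ntn4 higher and Frem1 lower under WM-8014, beside 7.39% of all genes. Under WM-2474 they were Col15a1, Col18a1, Lamc3 and Ntn4 higher, beside 4.15% of all genes. Npnt was 2.25-fold higher at 240 h under WM-8014 and 1.87-fold under WM-2474, and Lama4 1.53-fold and 1.77-fold. Lama5 was 2.08-fold higher under WM-8014 and 1.46-fold under WM-2474. The value under WM-2474 (edgeR adjusted p = 0.0298) was lost, at 0.0804 to 0.124, without any 1 of the 96 h libraries of cultures 5 or 7 or the 240 h library of culture 6, and at 0.113 without the Stag3-low libraries, in a range of 9.16e-05 to 0.124.

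Lama1 fell over time under WM-2474 (log2 fold change -0.75, edgeR adjusted p = 0.00965), lost with DESeq2 (0.0909), thinning (0.184), without the culture 7 library of WM-2474 at 96 h (0.105) and without the Stag3-low libraries (0.27), in a range of 0.00947 to 0.27. Lama2 was higher by 0.20 under WM-2474 (edgeR adjusted p = 0.0385) although the groups overlapped, and was lost with thinning (0.0723), at 0.0578 to 0.14 without any 1 of the culture 7 library of WM-8014 at 96 h, the culture 6 or 7 libraries of WM-2474 at 96 h, or the culture 6 or 7 libraries of WM-2474 at 240 h, and at 0.799 without the Stag3-low libraries, in a range of 0.00328 to 0.799. Each comparison over time shares its libraries with the comparisons of the compounds.

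**Figure D5:**
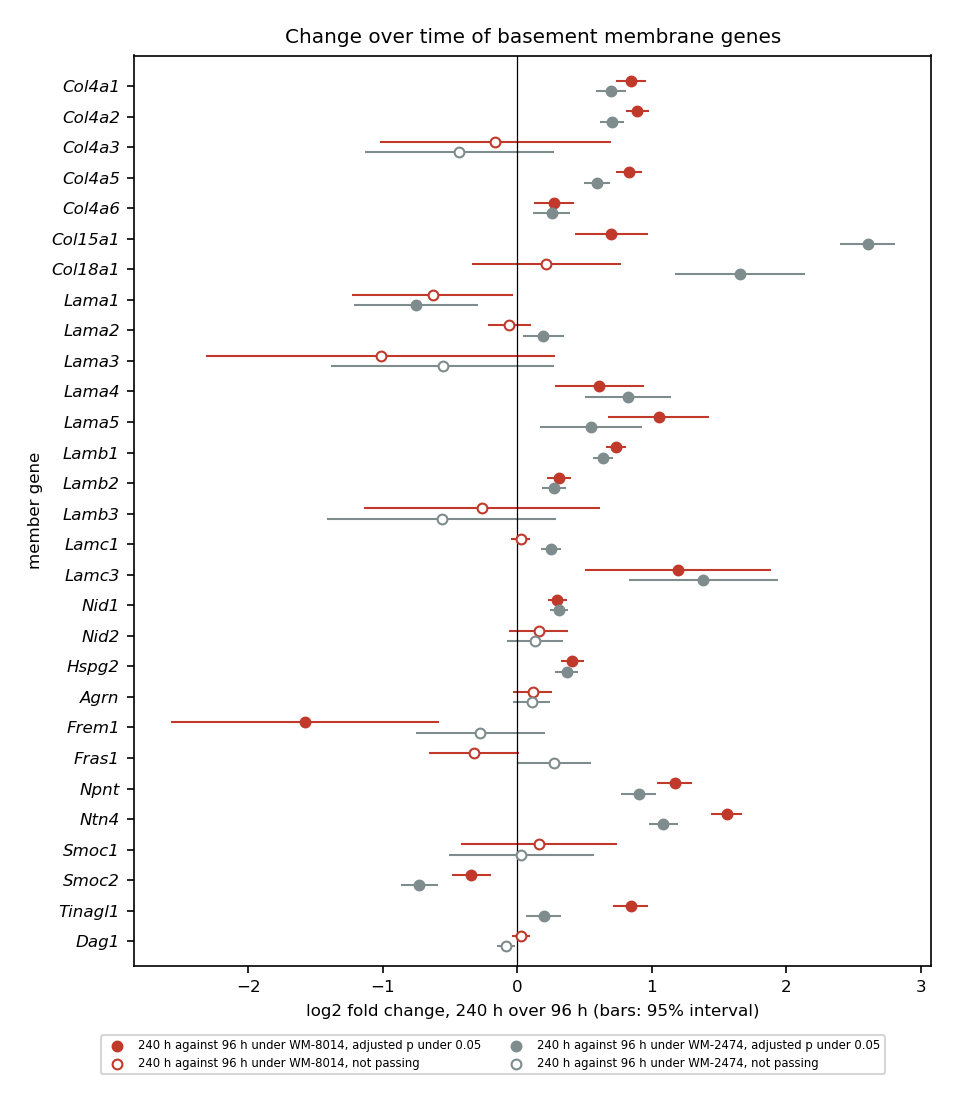
Log2 fold change of each tested gene, 240 h over 96 h, under WM-8014 and under WM-2474, with the 95% interval as a bar; filled points passed at an adjusted p under 0.05. Most points lie to the right of 0 under both compounds, and Col15a1 and Col18a1 reach 2.61 and 1.65 under WM-2474, against 0.70 and 0.22 under WM-8014.

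The receptors and partners of these proteins were read from lists of other genes. Of 15 receptors and dystroglycan partners tested, 3 were higher and 1, Bcam, lower with WM-8014 at 96 h. At 240 h 10 were higher and 1, Itga6, lower. The median log2 fold change was 0.07 at 96 h and 0.24 at 240 h. The list holds Utrn, Sgcb, Sgcd, Sgce and Sspn of the dystroglycan complex, which are not themselves receptors. All of these except Sspn were among the 10 higher at 240 h. The shares called were 26.7% and 73.3%, beside 22.8% and 42.6% of all genes. The Bcam call (edgeR adjusted p = 0.016, range 0.0107 to 0.376) was lost with DESeq2 (0.0579), at 0.0582 to 0.189 without any 1 of the culture 6 or 7 libraries of WM-8014 or the culture 7 library of WM-2474 at 96 h, and at 0.376 without the Stag3-low libraries. The Itga6 call (edgeR adjusted p = 0.0496, range 0.00724 to 0.174) was lost in 11 of the 18 alternatives, 7 of them with 1 library left out (0.0529 to 0.174). The 240 h call of Itga3 was lost without the culture 6 library of WM-8014 at 240 h (0.0532). That of Itgb1 was lost without the same library (0.0845) or the culture 5 library of WM-2474 at 240 h (0.153). At 240 h Utrn, whose product ties dystroglycan to actin, averaged 313 ± 4.9 CPM with WM-8014 and 249 ± 2.4 CPM with WM-2474 (log2 fold change 0.33, edgeR adjusted p = 7.02e-08). The sarcoglycan genes Sgcb and Sgcd, of the dystroglycan complex, were higher by 0.44 and 0.49 (edgeR adjusted p = 2.68e-05 and 6.11e-05), and Itga1, a collagen IV receptor subunit, by 0.35 (edgeR adjusted p = 1.19e-05). Sgcb was also higher at 96 h, at 38.2 ± 2.9 CPM with WM-8014 and 27.3 ± 1.1 CPM with WM-2474 (log2 fold change 0.48, edgeR adjusted p = 4.13e-05), as were the collagen receptor kinases Ddr1 and Ddr2, by 0.22 and 0.16, calls that were lost without the Stag3-low libraries (0.0703 and 0.12, the highest of their ranges, from 9.48e-05 and 0.00132).

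Of 25 enzymes and chaperones that make or cross-link these proteins, 4 were higher and 1 lower with WM-8014 at 96 h, and 7 were higher and 6 lower at 240 h, which is 20% and 52%, beside 22.8% and 42.6% of all genes. P3h2, a prolyl 3-hydroxylase that acts on collagen IV, averaged 11.7 ± 1.8 CPM with WM-8014 and 5.04 ± 0.93 CPM with WM-2474 at 240 h (log2 fold change 1.22, edgeR adjusted p = 3.62e-07). Pomgnt1, a glycosyltransferase that acts on dystroglycan, was higher by 0.33 (edgeR adjusted p = 1.99e-06). Plod1, a lysyl hydroxylase, was lower by 0.35 on the log2 scale, at 161 ± 3.6 CPM with WM-8014 and 204 ± 9.2 CPM with WM-2474 (log2 fold change -0.35, edgeR adjusted p = 2.33e-05). Pxdn, the peroxidase that cross-links collagen IV, averaged 331 ± 10 CPM with WM-8014 and 400.2 ± 22 CPM with WM-2474 (log2 fold change -0.27, edgeR adjusted p = 8.63e-05), and Serpinh1, the collagen chaperone HSP47, had a log2 fold change of -0.14 (edgeR adjusted p = 0.00327).

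Of 17 other secreted proteins found at basement membranes, 7 were higher and 3 lower with WM-8014 at 96 h, and 6 were higher and 7 lower at 240 h, which is 58.8% and 76.5%, beside 22.8% and 42.6% of all genes. Among the 7 higher at 96 h was Ntn3, which varied widely within groups, at 102 ± 40 CPM with WM-8014 and 29.5 ± 30 CPM with WM-2474 (SD, n = 3 each; edgeR adjusted p = 0.041, range 0.00156 to 0.479). That call was lost, at 0.0544 to 0.163, without any 1 library other than culture 7 of WM-8014 or culture 5 of WM-2474 at 96 h. It was also lost with no filter on low counts (0.0565), with thinning (0.0596) and without the Stag3-low libraries. Without the Stag3-low libraries the 96 h calls of Fn1, Matn2 and Papln were lost. Fn1 was also lost with no filter (0.163) and without some single libraries (up to 0.147). Matn2 was also lost without culture 5 of WM-8014 (0.0568) or culture 7 of WM-2474 at 96 h (0.0881). At 240 h the Papln call was lost with thinning (0.115) and without some single libraries (up to 0.0679). Some alternatives added Egflam, Postn, Col7a1 and Egfl6 at 96 h and Tnc at 240 h. Fbln1, which encodes fibulin-1, averaged 58.8 ± 1.7 CPM with WM-8014 and 82.4 ± 2.2 CPM with WM-2474 at 96 h, and 26.7 ± 0.53 and 66.2 ± 6.2 CPM at 240 h (log2 fold changes -0.49 and -1.31, edgeR adjusted p = 3.08e-06 and 1.97e-12). Its relative Fbln2 moved the other way, by 0.27 and 0.37 (edgeR adjusted p = 3.81e-05 and 8.39e-08). Ntn1, a guidance netrin, was at 31.4 ± 2.3 CPM with WM-8014 and 15.9 ± 0.69 CPM with WM-2474 at 96 h, and at 36.4 ± 4.7 and 17.7 ± 2.2 CPM at 240 h (SD, n = 3 each). Ecm1 was higher by 0.66 and 0.99 on the log2 scale. Hmcn1, which encodes hemicentin-1, was lower, with log2 fold changes of -0.997 at 96 h and -1.76 at 240 h, the first lost without the Stag3-low libraries (adjusted p = 0.145, range 1.27e-05 to 0.145).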

How the data were processed

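The deposited table gives a gene length in bases and, under Entrez identifiers, raw counts of reads for 12 libraries in 4 groups of 3. The authors made the counts with featureCounts on mm10, per the submitters' processing notes. For aligner, annotation and strand setting nothing is given in the sources used here. Of 27179 genes, 25275 (93%) matched a RefSeq symbol (GRCm38.p6).

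Counts were fitted in R 4.3.3 with edgeR 4.0.16 (filterByExpr by group, TMM, robust quasi-likelihood F test, two-sided, all 12 libraries in 1 fit). The filter left 14136 genes with at least 99.93% of each library's reads, and the common biological coefficient of variation was 4.64%. The threshold was an adjusted p of 0.05, by Benjamini and Hochberg's method over all genes tested. CPM use TMM-scaled totals, and SE and 95% intervals were derived from the F statistic. The code was tested on simulated data. Intervals and limits cover counting error or replicate spread only.

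The labels tag each library with its culture, but the main fit had no term for culture, so its p-values, SE and intervals are unpaired. Among the fits, same-numbered libraries were paired only in the alternative with culture as a block, whose values are given where a call changes. Deviations of same-numbered libraries correlated at 0.14, 0.15 and 0.16 between compounds at 96 h and at 0.064, 0.24 and 0.048 at 240 h. That a number marks 1 embryo or 1 dish is not given in the sources used here. The 18 alternatives were DESeq2 1.42.0 size factors, its Wald test, no filter, a culture block, thinning to 10147466 reads, each library left out, and both libraries with low Stag3 left out.

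The genes and lists were chosen with earlier results of these data known. Each library's value is given for Col4a1, Col4a2, Lama4, Lamb1, Lamc1, Nid1, Nid2 and Hspg2, for genes called with an absolute log2 fold change of at least 0.5 at either time, and for those called in the test of the difference. Ddx3y, Xist and Stag3 were chosen after their values were seen.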

Additional observations from a re-analysis of the deposited data

Results flagged for a closer look

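The effect of the compound differed between 240 h and 96 h, by edgeR's test of the difference with Benjamini-Hochberg adjustment over all genes, for 8 basement membrane genes. The differences, as the log2 effect at 240 h minus that at 96 h, were -1.90 for Col15a1 and -1.44 for Col18a1. They were 0.65 for Tinagl1, 0.47 for Ntn4 and 0.39 for Smoc2. They were 0.24 for Col4a5, -0.22 for Lamc1 and 0.19 for Col4a2. Each had the same sign in 3 of 3 same-numbered cultures. The genes were picked by a test on these same libraries, so that count adds no support. The differences of Col15a1, Ntn4 and Tinagl1 passed in all 18 alternatives, and each of the other 5 was lost in at least 1.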

How the results depend on the processing

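Of 145 results, 1 per tested gene and comparison, 79 were called, and 54 of these kept their direction and call in all 18 alternatives. Over the 12 fits with 1 library left out, 69 of 1740 results lost a call and 20 gained one. Without the Stag3-low libraries, 19 calls were lost, 1 was gained, and Col15a1 at 96 h turned sign (log2 fold change 0.0409). That run counted 4 genes higher and 2 lower at 96 h, 3 more positive and 1 more negative in the difference between times, and 1 lower over time under WM-2474. With 1 library left out, lower calls at 96 h numbered 4 to 10. More positive differences between times numbered 2 to 5. Lower calls over time numbered 1 to 2 under WM-8014 and 1 to 4 under WM-2474. DESeq2 and thinning each left 1 lower over time under WM-2474.

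With the replicate block, 5 genes had a more negative effect at 240 h, against 3 without it. Over the 145 results the block added 11 calls and ended 1, Lama4 at 240 h (adjusted p = 0.0538), and changed no other call. DESeq2 size factors changed no call, and no scaling moved the median of all genes by more than 0.1. Depth limited Col4a3, Col4a4, Lama3, Lamb3, Frem2 and Frem3, where 3 reads are 0.0654 to 0.296 CPM. The causes of these changes were not tested.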
